A study of Mus musculus with 2 samples.

Results

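The eIF2 alpha kinases are the 4 mammalian protein kinases that phosphorylate the alpha subunit of translation initiation factor eIF2: Eif2ak1 (HRI), Eif2ak2 (PKR), Eif2ak3 (PERK) and Eif2ak4 (GCN2). All probe sets that the array platform's annotation assigns to exactly 1 of these symbols were taken, which gave 9 of the 22690 probe sets on the array and 4 of the 12393 genes with a named probe set. Expression was measured in pancreatic islets at 2 days after birth, from wild-type mice and from PERK knockout mice, with 1 Affymetrix mouse 430A array per genotype. Islets were isolated by collagenase P digestion in both groups. The label of the wild-type sample names its strains and its sexes as mixed. The sources used here do not give the strain or sex of the knockout mice, the exons removed from Eif2ak3 or any pooling of pups.

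Each of these kinases senses a different stress and acts on the same serine of eIF2 alpha. Phosphorylated eIF2 blocks its own exchange factor, eIF2B, which lowers general translation and favours translation of a few messages such as that of the transcription factor ATF4. PERK spans the endoplasmic reticulum (ER) membrane and responds to unfolded protein in its lumen. It is the member best known in the pancreas, where its loss causes neonatal diabetes in mice and in people with Wolcott-Rallison syndrome. HRI responds to lack of heme and to mitochondrial stress, PKR to double-stranded RNA, and GCN2 to uncharged tRNA during amino acid shortage.

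A single array per genotype leaves no replicate error, so no test was made, and every ratio below compares these 2 libraries. Signals are linear intensities in arbitrary units as deposited, and probe sets differ in affinity, so a level is compared between arrays. Brightness across probe sets serves to choose probe sets of like signal and the brightest of a gene. It also places a signal against background and on its array, and it is summed over markers. None of these uses compares the abundance of different transcripts. Background was read in 2 ways. The 27 probe sets for bacterial transcripts that were not spiked in had a median signal of 3.9 and a highest of 16.0 on the wild-type array, against 2.7 and 12.2 on the knockout array. A stricter floor was set at the 40th percentile of both arrays together, 39.9 units. A probe set above the floor on both arrays is called measured, and one above it on a single array has only a bound. Probe sets of the same gene disagreed in their log2 ratio by an SD of 0.26 per probe set over 2595 genes, and of 0.29 in the dimmest 649 of these genes, whose range of brightness is the nearest to that of all 9 kinase probe sets. This SD covers differences between probe sets of a gene on the same 2 arrays. Error that those probe sets share cancels in it, and it leaves out animals, litters and RNA preparations.

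White blood cell markers were higher in the knockout, and islet endocrine markers were detected on both arrays. All 8 endocrine markers named on the array were measured, with summed signals of 38445 (wild type) and 38570 (knockout), most of it from hormone and granule transcripts near the top of the array, where a difference can be compressed. Of the dimmer ones, the glucose transporter Slc2a2 had a log2 ratio of -0.89 (860.4 to 464.9) and Pdx1 of -0.34. The 7 acinar markers named on the array, all measured, had summed signals of 33383 (wild type) and 34694 (knockout). Their median log2 ratio was 0.07. Kinase values are therefore of whole preparations, in which acinar transcripts were bright on both arrays. Of 16 white blood cell markers, 13 were measured and all 13 were higher in the knockout by brightest probe set. Of these, 6 were at least 2-fold higher, against 0.517% of all measured genes. Csf1r was higher only on its brightest probe set (log2 ratio 0.07), with -0.08 and -0.01 on its 2 others. The summed signal of the 16 went from 1647 in the wild type to 4239 in the knockout, none was at 0, and Itgam was at the floor on both arrays. The neutrophil genes S100a8, S100a9, Ngp and Lcn2, grouped after their values were seen, went from 355.3 to 2174.5 in sum, and the other 12 markers from 1291.8 to 2064.6 (1.60-fold). Of 7 red blood cell markers, Alas2 was measured, 2 had a bound and 4 lay under the floor on both arrays. The ratio of 3' to 5' signal, which rises as cRNA gets shorter, went from 1.61 in the wild type to 2.01 in the knockout for beta-actin, and from 1.01 to 0.867 for Gapdh. In whole islets, fewer cells of a type and less RNA per cell cannot be told apart.

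PERK was the only one of the kinases with a measured probe set at least 2-fold lower in the knockout library, by a margin that lies on the 2-fold limit. With a pseudocount of 32 in place of the floor the log2 ratio was -0.72, and with a floor at the 60th percentile it was only a bound of -0.38. The Eif2ak3 probe set 1449278_at read 117.7 in wild-type islets and 58.7 in knockout islets. Its log2 ratio was -1.00 (2.01-fold lower in the knockout), or 3.41 times the disagreement SD of probe sets of like brightness. The probe set moved from the 67.0th percentile of the wild-type array to the 48.4th of the knockout array. The knockout signal was still above background by both readings, at 1.47 times the floor and 4.81 times the highest unspiked control on that array. The wild-type signal was 2.95 times the floor. Among all 8129 measured genes, each by its brightest probe set, 0.652% were at least 2-fold lower in the knockout, and PERK ranked number 51 from the lowest. Among 2352 other probe sets with 1 gene symbol and a mean signal within 1.25 times that of 1449278_at, 17 (0.723%) had a ratio as low or lower. The median log2 ratio of those 2352 probe sets was 0.08, and the SD of their ratios was 0.38.

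**Figure D1:**
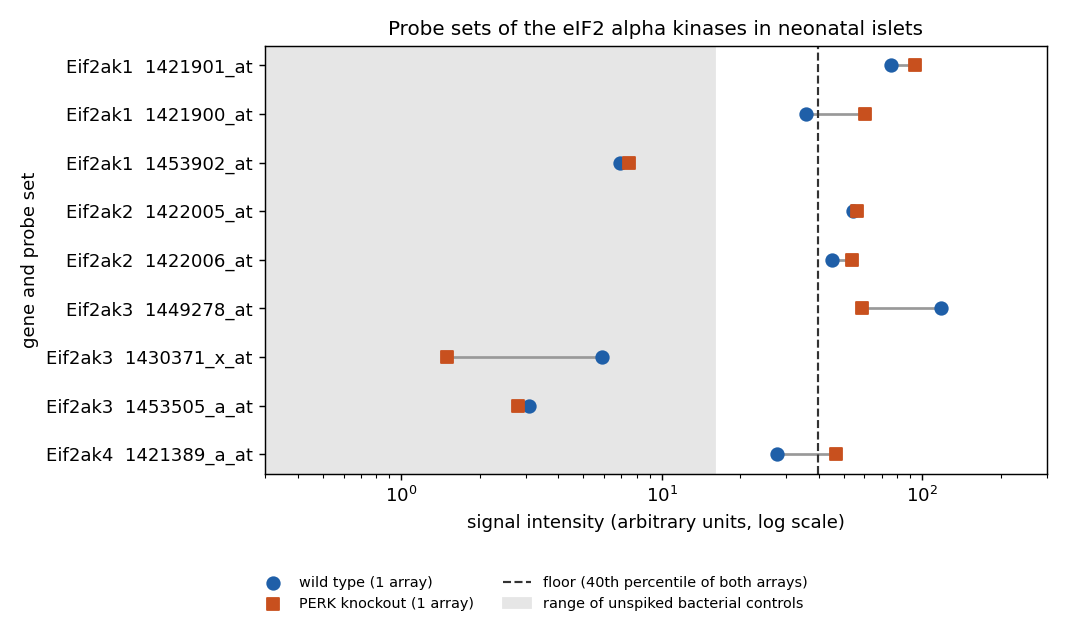
Signal of each of the 9 kinase probe sets in wild-type (circles) and PERK knockout islets (squares), on a log axis in arbitrary units, with the floor of 39.9 (dashed line) and the range of the unspiked bacterial controls (shaded). Of the 6 probe sets outside the shaded range, the Eif2ak3 probe set (117.7 to 58.7) is the only one that is lower in the knockout as deposited (Eif2ak2 1422005_at turns to -0.04 in log2 ratio with quantile and -0.03 with loess normalisation).

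The other Eif2ak3 probe sets gave no usable signal. Probe set 1430371_x_at read 5.9 (wild type) and 1.5 (knockout). Probe set 1453505_a_at read 3.1 and 2.8. Both lie inside the range of the unspiked controls: 10 of the 27 controls were at least as bright as the first on the wild-type array and 15 as the second. No ratio is given for either. Both were designed from the same cDNA record, which is not the transcript record behind 1449278_at. The measurement of PERK in these islets therefore rests on 1 probe set. Whether its probes lie within the deleted part of the gene is not known here, and a probe set outside that part would check nothing about the genotype labels.

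The upstream sequence of Eif2ak3 is shown because the locus is the one altered in these mice. It runs up to the outermost annotated start of the gene, over 219 bases at chr6:70844265-70844483 on the plus strand (RefSeq, GRCm38.p6), with CCAAT boxes on either strand in capitals (CCAAT, or ATTGG where the box is on the other strand).
Eif2ak3: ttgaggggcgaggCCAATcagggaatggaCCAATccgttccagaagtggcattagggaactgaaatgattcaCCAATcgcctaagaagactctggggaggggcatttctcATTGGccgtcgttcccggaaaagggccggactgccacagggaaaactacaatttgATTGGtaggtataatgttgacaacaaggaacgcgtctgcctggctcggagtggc
The CCAAT box, the recognition sequence of the general transcription factor NF-Y, was found 5 times in this stretch, 3 times on the plus strand and 2 times on the minus strand. It was found 1 time in the first 219 bases of the promoter window of Eif2ak1, each window starting 250 bases before an annotated transcript start, and not in those of Eif2ak2 or either Eif2ak4 promoter. Of the first 219 bases of 32851 mouse promoter windows, 30.9% held at least 1 CCAAT box and 0.131% held 5 or more. The length of 219 bases was set by the annotated start of Eif2ak3, and the motif search was not among the planned analyses. These shares therefore do not rate the promoter of Eif2ak3. The ER stress element (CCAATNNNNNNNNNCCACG, on both strands) contains a CCAAT box and was not found in the 300-base windows of the kinases, against 0.119% of all windows. These are matches of letters, and the arrays hold no measurement of binding.

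The other kinases had no probe set that was lower in the knockout, except that 1 of Eif2ak2 turned slightly negative with quantile or loess normalisation. Of the 6 probe sets of Eif2ak1, Eif2ak2 and Eif2ak4, 3 were measured, 2 gave a bound and 1 lay under the floor on both arrays. The 3 measured ones, which belong to Eif2ak1 and Eif2ak2, were higher in the knockout by less than 2-fold. The 2 with a bound passed the floor only through the knockout array, so their direction is fixed by the filter. Of all 13129 probe sets above the floor on at least 1 array, 55.9% were higher in the knockout by any amount, and of the measured ones 0.572% were at least 2-fold lower and 0.454% at least 2-fold higher. Dim probe sets as a whole read slightly higher on the knockout array: among those of like brightness to each of these 5 probe sets, the median log2 ratio was 0.09 to 0.10 and 58.2% to 61.5% were higher. White blood cell markers moved the same way (13 of 13 measured higher by brightest probe set), and their part in these values was not tested.

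Eif2ak1 encodes HRI, which is most abundant in red blood cell precursors and couples globin synthesis to heme supply. Its probe set 1421901_at read 75.8 in wild-type islets and 94.1 in knockout islets, a log2 ratio of 0.31 (1.24-fold higher). That difference was 1.06 times the disagreement SD. Of its 2362 brightness peers, 24.1% had a ratio as high or higher. Probe set 1421900_at, designed from the same expressed sequence record, read 35.8 and 60.1. The wild-type signal was under the floor, so the knockout was at least 1.51-fold higher. Without the floor the log2 ratio was 0.75, and 6.86% of 2216 peers were as high or higher. That share does not rate the rise, because 1421900_at passed the floor only through the knockout array. Both readings in the wild type were above all 27 unspiked controls. The third, 1453902_at, read 6.9 and 7.5, within the range of those controls.

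Eif2ak2 encodes PKR, an antiviral kinase whose transcript is induced by interferon. Probe set 1422005_at read 54.1 in wild-type islets and 56.1 in knockout islets (log2 ratio 0.05). Probe set 1422006_at, from the same sequence record, read 45.2 and 53.5 (log2 ratio 0.24, 1.18-fold higher). Both were measured, close to the floor at 1.13 to 1.41 times its value. Neither difference exceeded the disagreement SD of 0.29, and the ratio of 1422005_at turned to -0.04 with quantile normalisation and to -0.03 with loess.

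The Eif2ak2 promoter carries the core of an interferon-stimulated response element, shown here beside the interferon-stimulated transcripts. The motif GAAANNGAAA was searched on both strands of the 300-base windows, and its letters are in capitals. It begins at base 19 of the annotated transcript, at chr17:78882545-78882554 on the minus strand (RefSeq, GRCm38.p6), and is printed within 30 bases at chr17:78882535-78882564.
Eif2ak2: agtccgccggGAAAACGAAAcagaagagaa
The motif was found in 3.44% of the 32851 promoter windows and in no window of the other kinases. Of 22 interferon-stimulated genes on the list, 19 were named on the array, 12 were measured, 1 gave a bound and 6 lay under the floor on both arrays. Of the 12, 7 were higher and 5 lower, none was 2-fold apart, and their median log2 ratio of 0.03 equalled that of all measured genes (0.03). The gene with a bound, the interferon regulator Irf7, went from 38.6 to 67.8 (at least 1.70-fold higher). Irf7 passed the floor only through the knockout array, so its direction is fixed by the filter. The highest measured were Psmb9 (73.5 to 110.0, log2 ratio 0.58), an immunoproteasome subunit, and the transcription factor subunit Irf9 (0.45) and Ifit1 (0.33). The lowest were Rsad2 (viperin, -0.29, with 0.04 on its other measured probe set), Ifi35 (-0.19) and the ISG15 protease Usp18 (-0.15). White blood cells also express several of these genes, and the part of the higher white blood cell markers in these values was not tested.

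Eif2ak4 encodes GCN2, which binds uncharged tRNA. Its only probe set, 1421389_a_at, read 27.6 in wild-type islets and 46.6 in knockout islets. The knockout signal alone was above the floor, by 1.17 times, so the knockout was at least 1.17-fold higher. Both signals were above all 27 unspiked controls of their arrays, at 1.73 and 3.82 times the brightest one. Without the floor the log2 ratio was 0.76, and 8.52% of 2089 peers of like brightness were as high or higher. Because this probe set passed the floor only through the knockout array, that share does not rate the rise.

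**Figure D2:**
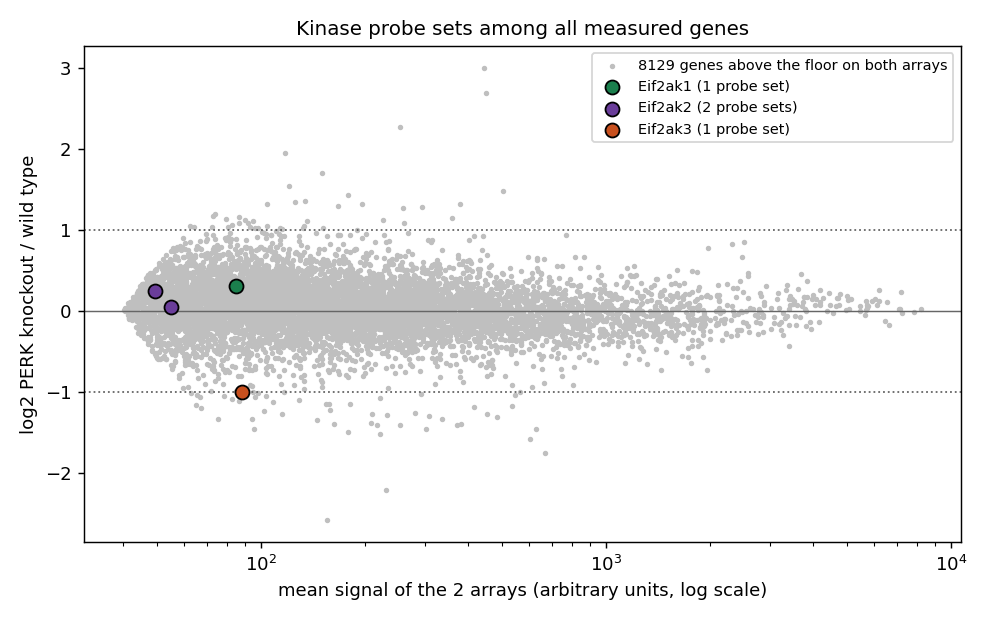
Log2 ratio of PERK knockout over wild type (vertical axis) against mean signal on a log axis for 8129 measured genes (grey, brightest probe set of each) and for the 4 measured kinase probe sets (coloured). Dotted lines mark 2-fold: Eif2ak3 sits on the lower one at -1.00, and the Eif2ak1 and Eif2ak2 probe sets lie between 0.05 and 0.31, within the grey cloud.

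Set against PERK, the measured probe sets of the other kinases had log2 ratios higher by 1.32 (Eif2ak1) and by 1.06 and 1.25 (Eif2ak2). With no replicate arrays, these differences between genes were not tested.

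The few measured genes next to Eif2ak3 on chromosome 6 had log2 ratios of mixed sign. In the gene order of the RefSeq table, the nearest gene on one side with a named probe set was Rpia, of the pentose phosphate pathway (418.9 to 536.4, log2 ratio 0.36), and on the other Thnsl2, a threonine synthase-like gene (91.6 to 76.3, -0.26). Krcc1, further along, went from 225.6 to 268.2 (0.25). Igkv8-30 passed the floor only through the knockout array and had a bound (14.8 to 45.7). Fabp1, Smyd1, Cd8b1, Igkv6-14, Igkv6-15 and Igkv6-20 were at the floor on both arrays, so 3 of the 10 neighbours were measured. None of the 3 was 2-fold apart, and so few values do not describe the neighbours as a group.

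Most genes of the 8 pathway lists were named on the array. They cover eIF2, eIF2B, the eIF2 alpha phosphatase, regulators of the kinases, ATF4 and its targets, other ER stress sensors, interferon-stimulated genes and heme genes. Over 8 lists, 95 genes were sought, 86 were named on the array and 74 were measured. None of the 74 was 2-fold lower or higher. Of all measured genes, 0.652% were at least 2-fold lower and 0.517% at least 2-fold higher. With shares this small, having none in 74 genes does not set them apart, nor does it in the shorter single lists. The median log2 ratio of the 74 was 0.01, with 40 higher and 34 lower.

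Of the substrate complex eIF2, 3 of 4 genes were named and measured, and Eif2s1, which encodes the phosphorylated alpha subunit itself, was not analysed here. The beta subunit gene Eif2s2 went from 1186.7 to 1096.0 (log2 ratio -0.11), but its 4 other measured probe sets ran from 0.04 to 0.81. The gamma subunit genes are sex-linked: X-linked Eif2s3x had log2 ratios of 0.14 and 0.12 on its measured probe sets, and Y-linked Eif2s3y of -0.56 (103.2 to 69.9). The part of the sex of the mice in the Eif2s3y value was not tested. Of eIF2B, the exchange factor that phosphorylated eIF2 inhibits, 4 of 5 subunit genes were measured. Eif2b1 went from 146.8 to 207.9 (0.50), Eif2b2 had 0.26 (0.05 and 0.17 on its other probe sets), Eif2b5 0.01 and Eif2b4 -0.06, a median of 0.13. The median of the eIF2 complex was -0.11, and 0.12 when taken over the measured probe sets of each gene.

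Of 6 genes that serve to reverse the phosphorylation, all measured, 5 were lower by brightest probe set and none by 2-fold. Of all 13129 probe sets above the floor on at least 1 array, 55.9% were higher. A count over 6 genes, some of them hardly changed, does not show a shared fall. Ppp1r15b, the constitutive targeting subunit of the eIF2 alpha phosphatase, went from 289.7 to 228.8 (log2 ratio -0.34). Ppp1r15a (GADD34), the stress-induced one, went from 428.5 to 410.5 (-0.06). The catalytic subunits of protein phosphatase 1 had log2 ratios of -0.30 for Ppp1ca, -0.10 for Ppp1cc (-0.18 on its other probe set) and 0.00 for Ppp1cb (-0.24 to 0.26 on its others). The adaptor Nck1 had -0.02. Their median was -0.08.

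Of 11 regulators of the kinases, 9 were measured, 5 of them higher, with a median log2 ratio of 0.01 that became 0.22 without _x_at and _s_at probe sets. Hspa5 (BiP), the ER chaperone that holds PERK inactive, went from 2908.5 to 3387.3 (0.22), with -0.07 on its other probe set. Dnajc3 (p58IPK), an inhibitor of PERK and PKR, had -0.01, and its 3 other measured probe sets ran from -0.22 to 0.37. Prkra (PACT), an activator of PKR, went from 139.7 to 200.6 (0.52), the largest ratio of the list, and Tarbp2, an inhibitor of PKR, from 123.8 to 106.6 (-0.22). Impact, an inhibitor of GCN2, had 0.33. Oma1, the mitochondrial protease that cleaves DELE1 upstream of HRI, had 0.34, and Dele1 had 0.01. The cytosolic chaperones Hspa8 and Hsp90aa1 had -0.07 and -0.03, and the other probe sets of Hspa8 ran from 0.32 to 0.33.

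**Figure D3:**
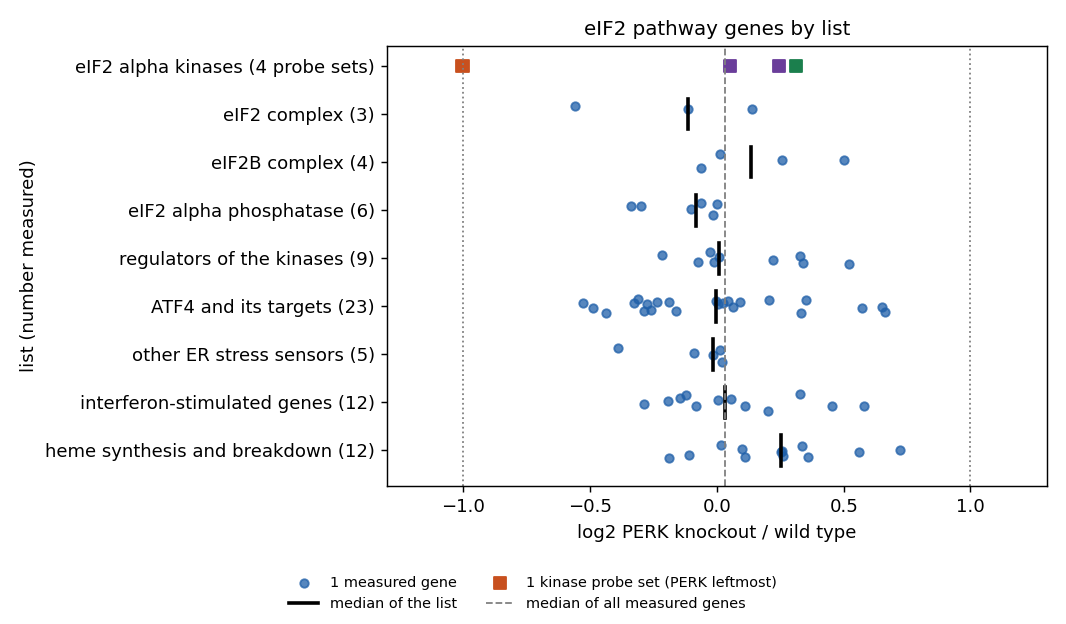
Log2 ratio of PERK knockout over wild type for each measured gene (circles, brightest probe set) of 8 pathway lists, with the median of each list (black bar) and of all measured genes (dashed line, 0.03). The top row shows the 4 measured kinase probe sets, where Eif2ak3 alone reaches a 2-fold limit (dotted lines), and list medians run from -0.11 for the eIF2 complex (0.12 when taken over the probe sets of each gene) to 0.25 for heme genes.

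Downstream of the kinases, all 27 genes of the list of ATF4 and its targets were named and 23 were measured. Of these, 11 were higher and 12 lower, none 2-fold apart, with a median log2 ratio of -0.01. That median was -0.13 when taken over the measured probe sets of each gene and -0.16 without _x_at and _s_at probe sets. The lowest were Aars, alanyl-tRNA synthetase (197.8 to 137.3, log2 ratio -0.53, with -0.75 on its other measured probe set), Chac1, which degrades glutathione (81.6 to 58.2, -0.49), and the pseudokinase Trib3 (132.3 to 97.6, -0.44). The highest were Vldlr, a lipoprotein receptor (54.7 to 86.6, 0.66), Ddit3 (CHOP), a transcription factor of ER stress (108.1 to 169.7, 0.65), and Sesn2, an inhibitor of mTORC1 (121.3 to 180.5, 0.57). Cth, Slc7a11, Slc7a3 and Fgf21 were at the floor on both arrays.

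Enzymes of serine, asparagine and folate metabolism on that list, picked after their values were seen, gave log2 ratios of -0.26 and -0.41 for Asns, -0.29 and -0.45 for Psat1, -0.33 and -0.62 for Mthfd2, and -0.01 and -0.26 for Shmt2. Phgdh had -0.24 on its brightest probe set and -0.71 to -0.43 on 3 others. They come from a list with 11 measured genes higher and 12 lower. Among the higher were Stc2 (0.35), Nupr1 (0.33) and Cebpg (0.20), each by brightest probe set. Atf4 itself had -0.31, with -0.06 on its other measured probe set. The picked enzymes therefore do not describe the list.

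Of 7 genes of the other ER stress sensors, which work beside PERK, 5 were measured, 2 higher and 3 lower, with a median log2 ratio of -0.02 and none 2-fold apart. Atf6b went from 130.2 to 99.4 (-0.39) and its relative Atf6 from 199.8 to 201.5 (0.01). Ern1 (IRE1 alpha) was only just above the floor (42.8 to 40.2, -0.09), and Ern2 was at the floor. Xbp1, the transcript that IRE1 splices, had -0.02 (-0.36 to 0.11 on its other probe sets), and Mbtps1, a protease that cleaves ATF6, had 0.02.

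Genes of heme synthesis and breakdown, the pathway that HRI senses, had the highest median of the 8 pathway lists. All 12 named on the array were measured, 10 were higher and 2 lower, and none was 2-fold apart, with a median log2 ratio of 0.25 against 0.03 for all measured genes. Of 5999 measured genes in the same range of brightness, 58.1% were higher in the knockout, with a median of 0.05. White blood cell markers were higher too (13 of 13 measured by brightest probe set, median 0.87), and their part in the heme genes was not tested. The highest were Blvrb, biliverdin reductase B (65.3 to 107.8, log2 ratio 0.72), Alad, which makes porphobilinogen (167.3 to 246.9, 0.56), and Urod, a later enzyme of the same route (139.6 to 178.9, 0.36). The lowest were Alas2 (73.5 to 64.4, -0.19) and Alas1 (-0.11), the erythroid and housekeeping forms of the first enzyme, and Uros (0.02). The red blood cell markers did not give a clear reading beside this: the summed signal of the 7 went from 211.6 in the wild type to 266.1 in the knockout, with 4 at the floor, among them Hba-a1 and Hbb-b2.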

How the data were processed

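The authors deposited 1 linear signal intensity per probe set for each array; GCOS 1.02 is the tool in the submitters' processing notes, and the sources used here do not give the background correction, summary method, detection calls or genome build. From these values, the arrays were set to a common 2% trimmed mean over all but the control probe sets (factor 1.00), signals under the floor were set to it, and the log2 ratio of knockout to wild type was computed. Genes were represented by their brightest probe set. Probe sets were named from the platform annotation: 20380 had 1 symbol, 691 several and 1555 none. No p-value was computed, and the number of arrays limits the precision. The procedure was tested on simulated data with planted changes larger than 2-fold and noise of the size of the disagreement SD. That test does not bear on a ratio at the 2-fold limit. The members and the gene lists were chosen with earlier results of these data known. Named genes were all members, the eIF2, eIF2B, phosphatase, regulator and sensor lists, the 3 highest and lowest of the longer lists, and 5 neighbours on each side of Eif2ak3. Further genes of the ATF4 list were named outside this rule, after their values were seen. The rule also named the 3 probe sets nearest in signal to the PERK one, left out because levels of different probe sets are not comparable. Of the marker lists not described in the report, duct (5 measured), endothelial (8) and mesenchymal (10) markers had median log2 ratios of -0.03, -0.12 and -0.02. Tools were Python 3.11.15, pandas 2.3.3 and scipy 1.17.1.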

Additional observations from a re-analysis of the deposited data

How the results depend on the processing

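The lower PERK signal kept its direction in all 7 alternatives tried: no rescaling, centring on the median, normalisation by quantiles or by loess, a floor at the 25th or the 60th percentile, and a pseudocount of 32 without a floor. A changed floor or a pseudocount could not have reversed this direction, because each acts on the same signals. Leaving out the rescaling, which hardly changed the values, or lowering the floor to the 25th percentile only repeated the main ratio. The direction was therefore open to change only with median centring and with quantile or loess normalisation. The PERK signal stayed at least 2-fold lower in 5 of the 7 alternatives, those that repeated the main ratio included. With the pseudocount the log2 ratio was -0.72, and at the 60th percentile (90.6 units) the knockout signal lay under the floor, leaving a bound of -0.38. At that floor 0 of the 9 kinase probe sets were measured. With the floor at the 25th percentile, 6 were, and Eif2ak4 had a log2 ratio of 0.76. Genes at least 2-fold lower numbered 80 and 28 with the lower and higher floor and 26 with the pseudocount, against 53. Those at least 2-fold higher numbered 80, 13 and 16, and 27 with quantile and 26 with loess normalisation, against 42. List medians, with 9 alternatives each, were held to the disagreement SD of 0.26 over the square root of the number of genes. Taking the median over probe sets moved the eIF2 complex to 0.12 and ATF4 and its targets to -0.13. Leaving out the _x_at and _s_at types moved the kinase regulators to 0.22 and the ATF4 list to -0.16. The higher floor moved the ATF4 list to -0.16 and interferon-stimulated genes to -0.081, and loess moved the ATF4 list to -0.062. The causes were not tested. No paired analysis was possible because there is 1 array per genotype. Low signal over background limits every kinase value.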
